A study of Saccharomyces cerevisiae with 2 samples.

Results

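The nuclear pore complex is the gate through which proteins and RNA pass between nucleus and cytoplasm, and the genes of 32 of its proteins in budding yeast were examined here for their ribosome footprints during meiosis. They were chosen by name from the 6592 named genes of the deposited table. It holds 31 under the listed name and the other one, NUP59, as ASM4, the symbol that RefSeq gives for it. Ribosome profiling reads out the pieces of mRNA covered by translating ribosomes. It was carried out on 1 culture lacking GIM3 (labelled gim3 deletion) and 1 wild-type (WT) culture. Both were of SK1, a yeast background used for meiosis because it sporulates readily, and both had spent 4 hours in sporulation medium after 24 hours in YEPD at 22 degrees C and 16 hours in BYTA. GIM3 encodes a subunit of prefoldin, a cochaperone that passes newly made cytoskeletal proteins to the CCT chaperonin, and the study asks what prefoldin does in meiosis. How many strains or clones the deletion culture stands for is not stated in the labels.

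The pore is built from a few kinds of parts. Outer rings and an inner ring form the scaffold, a membrane ring holds it in the nuclear envelope, and proteins rich in phenylalanine-glycine (FG) repeats fill the channel and bind the transport receptors. A basket hangs from the nuclear face, and a platform on the cytoplasmic face strips exported mRNA of its carrier proteins. The envelope of budding yeast stays closed through both meiotic divisions. In this organism the basket is known to come off the pore for a time during meiosis, and much of the pore material is left outside the spore nuclei and destroyed.

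There was 1 library per genotype, so there is no replicate error and no test between genotypes. Differences therefore describe these libraries, and the exact 95% intervals beside them reflect counting error alone. The gim3 deletion library held 27864644 counted reads and the WT library 40433177. Values are in RPM, or reads per 1000000 of the library. A gene was compared where it averaged 10 RPM or more over both libraries, which left 4916 genes, and all 32 pore genes were among them. GIM3 itself stood at 0.108 RPM in the gim3 deletion library, from 3 reads, against 34.9 RPM in the WT library. All 8 listed genes of meiotic entry and prophase were well above the filter in both libraries. Of the 4 listed genes of vegetative G1 and budding, the cyclins CLN1, CLN2 and CLB2 stayed between 2.69 and 6.75 RPM. The fourth, BUD4, which marks the bud site, had 105 RPM in the gim3 deletion library and 41.4 RPM in the WT library, 2.53-fold higher. Of the 4 listed haploid genes only STE3, a pheromone receptor, passed the filter, with 22.8 RPM in the gim3 deletion library and 14.1 RPM in the WT library. The libraries differed in stage markers. All 16 listed genes of middle meiosis, the programme of the divisions and of spore formation, were at least 2-fold higher in the gim3 deletion library. Of all genes compared, 6.35% were at least 2-fold higher. SPS1, SMA2 and ISC10 had 5.79, 5.05 and 8.43 RPM in the WT library and met the filter only through the gim3 deletion library. The 16 genes took 2.90% of the reads in the gim3 deletion library against 0.264% in the WT library. The part of this stage difference in the results below was not tested. In a culture measured as a whole, fewer cells of a stage and less RNA per cell cannot be told apart, and footprints alone do not divide a difference into mRNA level and translation.

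As a group, the pore genes were close to the typical gene. No pore gene was at least 2-fold higher in the gim3 deletion library and 1 of 32, NSP1, was at least 2-fold lower, by a rule on the log2 ratio after adding 1 RPM to each value. By the same rule, 6.35% of all genes compared passed 2-fold upward and 8.50% downward, 14.8% in both directions together. At a looser limit of 1.5-fold, 4 pore genes were higher and 6 lower, beside 12.0% and 22.6% of all genes. The median log2 ratio of the pore genes, gim3 deletion over WT, was -0.15, beside -0.20 for all genes compared. Ratios of 11 pore genes were above 0 and of 21 below 0, where 35.5% and 64.5% of all genes were. The ratios of 16 pore genes lay between the 25th and the 75th percentile of all genes, 8 lay above and 8 below, which is how the quartiles divide all genes. Together the 32 genes took 0.419% of the reads in the gim3 deletion library (Wilson 95% interval 0.417 to 0.421) and 0.465% in the WT library (0.463 to 0.467). Their sum was 1.11-fold lower in the gim3 deletion library. Without NSP1 it was 0.388% in the gim3 deletion library and 0.400% in the WT library.

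Because the median gene sits at -0.20, a pore gene with a log2 ratio between that value and 0 is lower in the deposited scaling and higher relative to the median gene. This holds for NUP1, NUP2, NUP84, NIC96, NDC1, NUP42 and NUP159. Relative to the median gene, 18 pore genes were higher and 14 lower, NSP1 was within 2-fold at -0.87, and MLP1 and NUP59 passed 2-fold, at centred log2 ratios of 1.18 and 1.17. The calls at 2-fold therefore rest on the scaling. A common shift of this kind leaves the order of the pore genes as it is. NUP59 met the filter of 10 RPM only through the gim3 deletion library, with 15.3 RPM there and 7.30 RPM in the WT library. Such a filter favours a low gene that is higher in 1 library, so the call of NUP59 carries little weight.

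**Figure D1:**
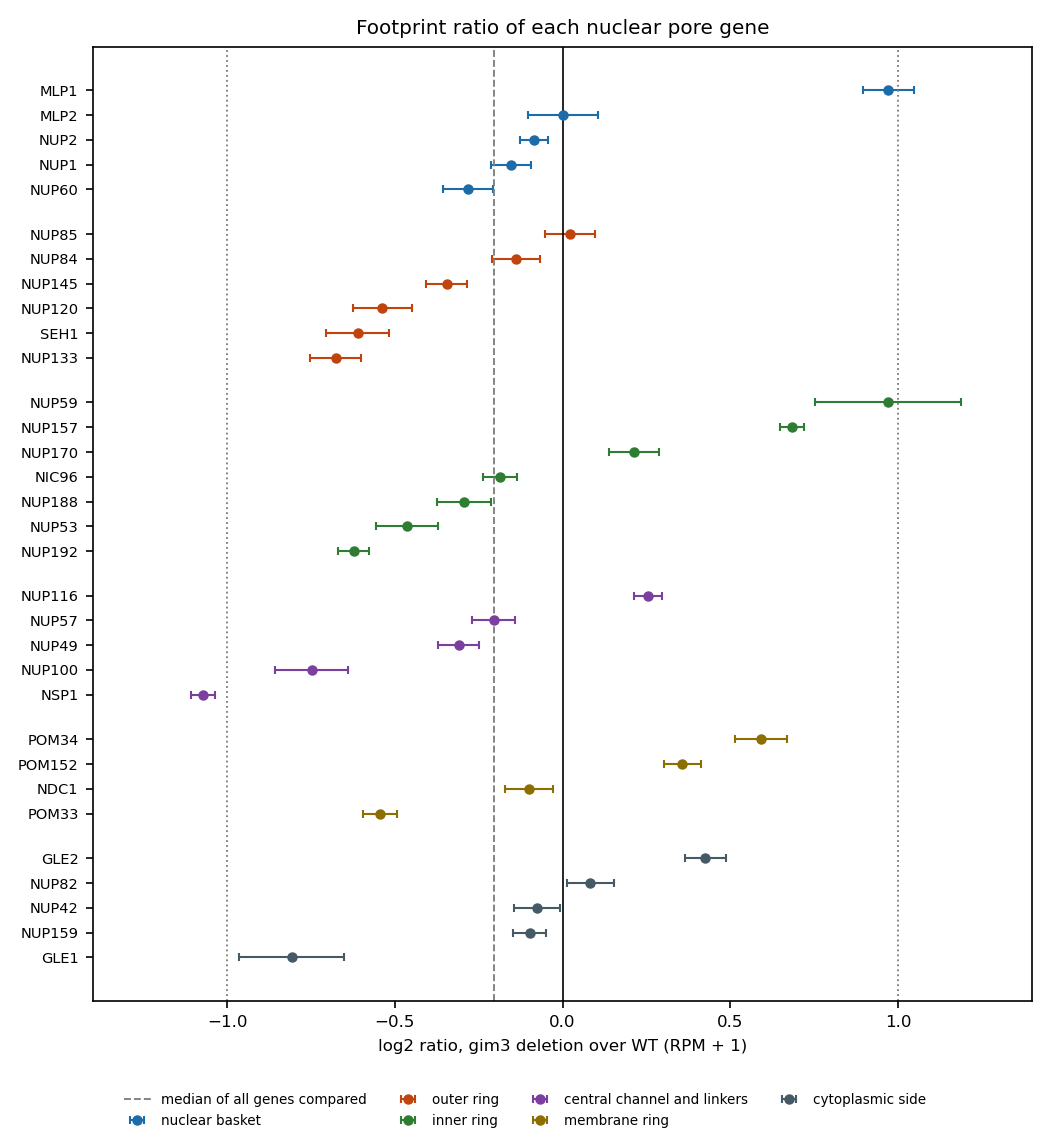
Log2 ratio of RPM + 1, gim3 deletion over WT, for each of the 32 pore genes, grouped by place in the pore; bars are exact 95% intervals for counting error, the dashed line is the median of all 4916 genes (-0.20) and dotted lines mark 2-fold. NSP1 is the one gene beyond a dotted line, and MLP1 and NUP59 lie just inside the other. Left of 0 lie 5 of the 6 outer ring genes, beside 64.5% of all genes compared.

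The central channel held the pore gene that differed most in the deposited scaling, though relative to the median gene MLP1, NUP59 and NUP157 lay further out. NSP1, NUP49 and NUP57 encode FG proteins that join into one channel complex, and NSP1 protein also sits on the cytoplasmic side in a complex with NUP82. NSP1 had 311 RPM in the gim3 deletion library, against 656 RPM in the WT library, and was 2.11-fold lower (2.06 to 2.16). It is the pore gene with the most reads in the WT library, 26518, against 8678 in the gim3 deletion library. The ratio of NSP1 was at percentile 6.93 of all genes compared. Its channel partners differed far less. NUP49 had 120 RPM in the gim3 deletion library, against 149 RPM in the WT library, and was 1.24-fold lower (1.19 to 1.30). NUP57, with 112 RPM in the gim3 deletion library and 130 RPM in the WT library, was 1.154-fold lower (1.10 to 1.21) and had the log2 ratio of the median gene, -0.21. Per kb of gene, NSP1 stood 1.43 times above NUP49 in the gim3 deletion library and 2.42 times above it in the WT library. Over NUP57 the factors were 1.74 in the gim3 deletion library and 3.17 in the WT library, so that the levels of the trio lay closer together in the gim3 deletion library. Levels per kb divide RPM by the annotated span of the gene. The span of NSP1 alone among the 32 is not a multiple of 3, that is, it is more than coding sequence, so its level per kb is somewhat understated in both libraries alike.

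NUP116 and NUP100 are related FG proteins that link the channel to the scaffold, and NUP116 also binds GLE2. NUP116 had 299 RPM in the gim3 deletion library and 250 RPM in the WT library, 1.19-fold higher (1.16 to 1.23). NUP100 went the other way, with 34.6 RPM in the gim3 deletion library and 58.8 RPM in the WT library, 1.70-fold lower (1.58 to 1.83). The median log2 ratio of the 5 channel and linker genes was -0.31, and NUP116 was the only one of them above the median gene.

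Outer ring genes were the most uniform of the 6 groups, with 0.70 on the log2 scale between the highest and the lowest ratio. The ring is made of a Y-shaped complex of scaffold proteins. SEC13, a further subunit that also coats transport vesicles, was not among the chosen pore genes and had 144 RPM in the gim3 deletion library and 193 RPM in the WT library, a log2 ratio of -0.41. Of the 6 chosen outer ring genes, 5 had log2 ratios below 0, where 64.5% of all genes compared were. The group's median was -0.44, or -0.24 relative to the median gene, with 4 of 6 below that gene. NUP133, which forms the stalk of the Y together with NUP84, had 71.1 RPM in the gim3 deletion library and 114 RPM in the WT library, 1.61-fold lower (1.52 to 1.69). SEH1, which also serves in a vacuolar complex that controls the TORC1 kinase, had 48.9 RPM in the gim3 deletion library and 75.2 RPM in the WT library, 1.54-fold lower (1.44 to 1.64). NUP120, an arm of the Y, had 55.2 RPM in the gim3 deletion library and 80.6 RPM in the WT library, 1.46-fold lower (1.37 to 1.55). These 3 lay below the 25th percentile of all genes compared. NUP145 encodes a precursor that cuts itself into an FG protein and an outer ring protein, so its footprints cover both products. It had 119 RPM in the gim3 deletion library and 152 RPM in the WT library, 1.27-fold lower (1.22 to 1.33). NUP84 was 1.10-fold lower, with 90.4 RPM in the gim3 deletion library and 99.6 RPM in the WT library. NUP85, the other arm, had 89.8 RPM in the gim3 deletion library and 88.5 RPM in the WT library, and its interval of the fold, 0.964 to 1.07, holds 1. Levels per kb within the ring were also the most even of any group. SEH1 was highest and NUP120 lowest in both libraries, with a factor between them of 2.62 in the gim3 deletion library and 2.77 in the WT library.

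The inner ring showed no common direction, and its genes spanned 1.59 on the log2 scale from highest to lowest ratio. NUP157, a large scaffold protein that touches the membrane, had 468 RPM in the gim3 deletion library and 291 RPM in the WT library. It was 1.61-fold higher (1.57 to 1.65). Its paralog NUP170 was 1.16-fold higher (1.10 to 1.22), with 94.0 RPM in the gim3 deletion library and 81.0 RPM in the WT library. NUP192, another large scaffold protein, had 204 RPM in the gim3 deletion library and 314 RPM in the WT library, 1.54-fold lower. Its relative NUP188 was nearer the median gene, with 69.2 RPM in the gim3 deletion library and 85.0 RPM in the WT library, 1.23-fold lower. NIC96, which anchors the channel trio to the ring, had 188 RPM in the gim3 deletion library and 214 RPM in the WT library, 1.14-fold lower. It was the middle gene of the ring with a log2 ratio of -0.19.

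NUP53 and NUP59 encode related inner ring proteins that bind the membrane, and they lay on opposite sides. NUP53 had 50.5 RPM in the gim3 deletion library and 70.0 RPM in the WT library, 1.39-fold lower (1.30 to 1.48). NUP59 had 15.3 RPM in the gim3 deletion library and 7.30 RPM in the WT library, from 425 and 295 reads, 2.09-fold higher (1.80 to 2.43) as a plain ratio of RPM. With 1 RPM added its log2 ratio was 0.97, just inside the 2-fold rule. It had the fewest reads of all pore genes in each library and met the filter only through its gim3 deletion value. Its WT level per kb was at percentile 0.952 of the genes compared that have an annotated span.

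**Figure D2:**
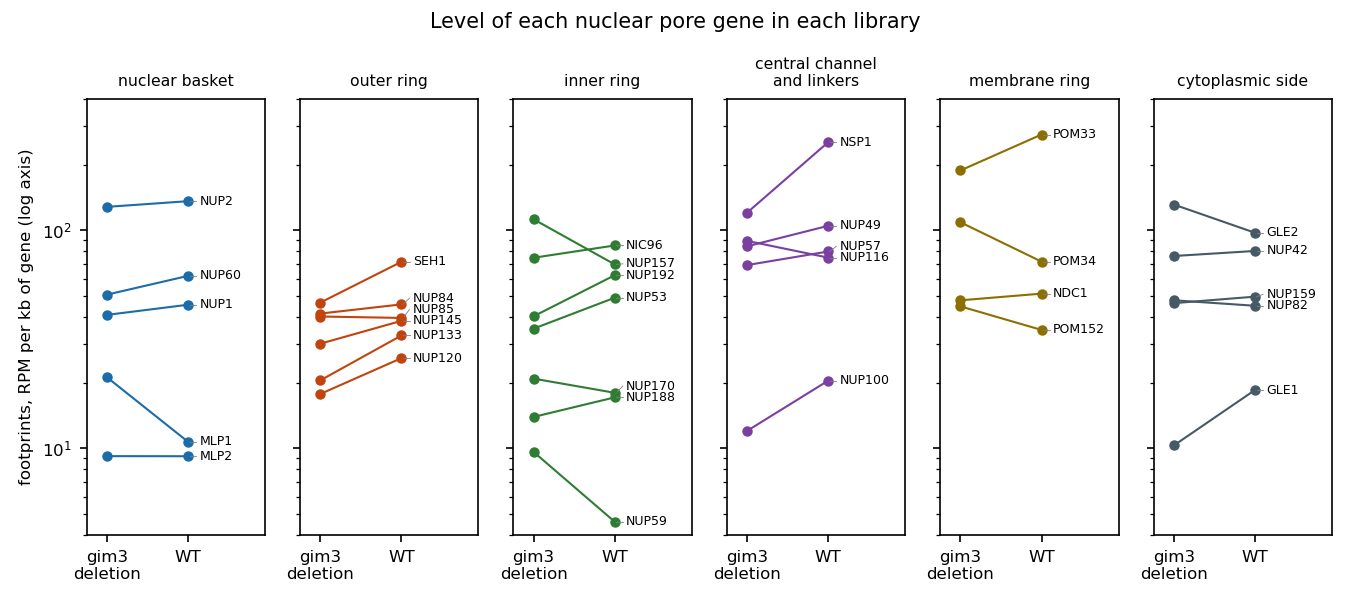
Level of each pore gene in RPM per kb of gene (log axis), gim3 deletion on the left and WT on the right of each panel, one panel per part of the pore, 1 library per genotype. NSP1 drops furthest toward the gim3 deletion side (120 against 253), NUP157 overtakes NIC96, and the outer ring genes stay within a narrow band.

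In the nuclear basket, MLP1 stood apart from the other genes. MLP1 and MLP2 encode long coiled-coil filaments of the basket, and MLP1 takes part in holding back faulty mRNA. MLP1 had 119 RPM in the gim3 deletion library and 60.2 RPM in the WT library, 1.98-fold higher (1.88 to 2.08). Its log2 ratio was 0.97 with the added 1 RPM, just inside the 2-fold rule and at percentile 93.4 of all genes compared. MLP2 had 46.4 RPM in the gim3 deletion library and 46.3 RPM in the WT library, with an interval of the fold of 0.932 to 1.08. NUP60, which ties the filaments to the pore and is the part of the basket known to be phosphorylated when the basket comes off in meiosis, had 82.0 RPM in the gim3 deletion library and 99.99 RPM in the WT library. It was 1.22-fold lower (1.16 to 1.28). The FG proteins NUP1 and NUP2, which bind importins, were nearer to 1. NUP1 had 132 RPM in the gim3 deletion library and 147 RPM in the WT library, 1.11-fold lower. NUP2 had 277 RPM in the gim3 deletion library and 294 RPM in the WT library, 1.06-fold lower. The levels of the basket genes were very uneven, from NUP2 at 128 RPM per kb in the gim3 deletion library and 136 in the WT library to MLP2 at 9.20 in the gim3 deletion library and 9.19 in the WT library.

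Membrane ring genes were divided. POM34 and POM152, partners that form the ring in the lumen and membrane of the envelope, were both higher. POM34 had 97.8 RPM in the gim3 deletion library and 64.6 RPM in the WT library, 1.52-fold higher (1.44 to 1.60). POM152 had 180 RPM in the gim3 deletion library and 140.0 RPM in the WT library, 1.28-fold higher (1.23 to 1.33). NDC1, which also anchors the spindle pole body in the envelope, had 93.8 RPM in the gim3 deletion library and 101 RPM in the WT library, 1.07-fold lower. POM33, which acts in the making of new pores, was 1.46-fold lower (1.41 to 1.52), with 158 RPM in the gim3 deletion library and 231 RPM in the WT library. POM33 nevertheless had the highest level per kb of all 32 genes in both libraries, 188 in the gim3 deletion library and 275 in the WT library. The group's median log2 ratio of 0.13 was the only one of the 6 above 0 in the deposited scaling.

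On the cytoplasmic side, the scaffold pair NUP82 and NUP159 and also NUP42 were nearly level, while GLE1 and GLE2 differed in opposite directions. NUP82 had 102 RPM in the gim3 deletion library and 96.4 RPM in the WT library, 1.06-fold higher. NUP159, which holds the helicase DBP5 at the pore, had 203 RPM in the gim3 deletion library and 217 RPM in the WT library, 1.07-fold lower. NUP42, a partner of GLE1, was 1.05-fold lower, with 98.4 RPM in the gim3 deletion library and 104 RPM in the WT library. GLE1, which switches DBP5 on, had 16.7 RPM in the gim3 deletion library and 29.9 RPM in the WT library, 1.80-fold lower (1.61 to 2.00). GLE2, an mRNA export factor bound to NUP116, was 1.35-fold higher (1.29 to 1.41), with 144 RPM in the gim3 deletion library and 107 RPM in the WT library. GLE2 and NUP116 were thus both above the median gene, at percentiles 84.4 and 78.5. GLE1 was the second lowest of the 32 ratios, after NSP1, at percentile 13.3.

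Several pore genes have a paralog, and the share of each copy per kb differed between the libraries. The pair MLP1 and MLP2 had 69.7% of its level in MLP1 in the gim3 deletion library and 53.8% in the WT library. For NUP53 and NUP59 the share of NUP53 was 78.6% in the gim3 deletion library and 91.4% in the WT library. In NUP100 and NUP116 the minor copy NUP100 held 11.9% in the gim3 deletion library and 21.4% in the WT library. NUP157 held 84.3% of its pair with NUP170 in the gim3 deletion library and 79.5% in the WT library. POM33 and PER33, a related membrane protein, showed the smallest difference in log2 ratio of these 5 pairs, -0.45, and POM33 held 73.5% in the gim3 deletion library and 79.1% in the WT library. The major copy was the same in both libraries in all 5 pairs. How reads that match several places were counted is not given in the sources used here, and reads of FG repeats or of related copies could be divided between genes.

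**Figure D3:**
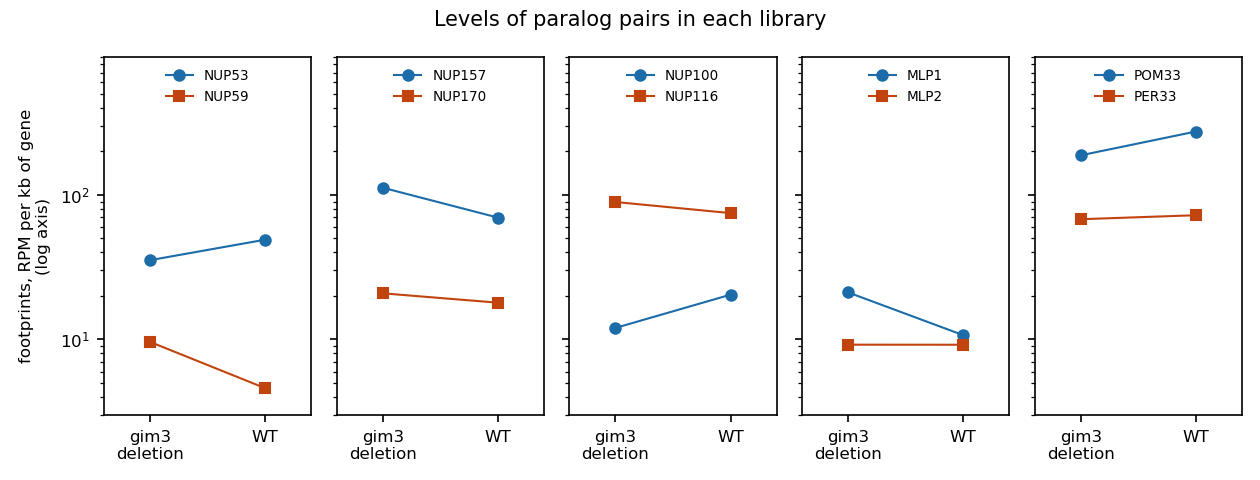
Levels of the 5 paralog pairs in RPM per kb of gene (log axis), gim3 deletion on the left and WT on the right, 1 library per genotype; circles and squares are the 2 copies named in each panel. MLP1 draws away from MLP2 in the gim3 deletion library, NUP59 comes nearer to NUP53, and NUP100 lies further below NUP116.

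The order of levels per kb was much alike in both libraries. POM33, GLE2, NUP2, NSP1 and NUP157 were the 5 highest in the gim3 deletion library, and POM33, NSP1, NUP2, NUP49 and GLE2 in the WT library. GLE2 and NUP2, at 131 and 128 RPM per kb in the gim3 deletion library, had overlapping counting intervals there. The lowest were MLP2, NUP59, GLE1 and NUP100 in the gim3 deletion library, between 9.20 and 12.01, and NUP59, MLP2, MLP1 and NUP188 in the WT library, between 4.60 and 17.1. Of the 31 pairs of neighbours in the order, 16 had overlapping counting intervals in the gim3 deletion library and 12 in the WT library. The median pore gene had 45.5 RPM per kb in the gim3 deletion library and 49.3 in the WT library, where the median of all genes compared was 47.0 in the gim3 deletion library and 53.0 in the WT library.

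Genes that work with the pore were read from lists chosen by function. Importins and exportins, the receptors that carry cargo through the channel, all had ratios below 0, where 64.5% of all genes compared were. None of the 15 passed 2-fold in either direction, where 14.8% of all genes did. Of the 15, 14 lay below the median gene. The median log2 ratio of the list was -0.66, beside -0.15 for the pore genes. PSE1, an importin, was lowest, with 36.2 RPM in the gim3 deletion library and 71.3 RPM in the WT library, 1.97-fold lower (1.83 to 2.12). KAP122, another receptor, was highest at -0.19.

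Genes of the Ran cycle, which gives transport its direction, had a median of -0.63 with 0 of 8 beyond 2-fold, beside 14.8% of all genes. In the list 3 ratios were above 0 and 5 below, where 35.5% and 64.5% of all genes compared were. Its summed level was nearly equal, at 1959 RPM in the gim3 deletion library and 1950 RPM in the WT library. NTF2, which carries Ran back into the nucleus, was highest, with 479 RPM in the gim3 deletion library and 292 RPM in the WT library, 1.64-fold higher (1.60 to 1.68). GSP1, a Ran gene, was lowest at 1.77-fold lower (1.70 to 1.85), while its second copy, GSP2, had a log2 ratio of 0.04. These copies are closely related and how reads were divided between them is unknown.

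Of the mRNA export genes, 9 of 10 passed the filter and their median was -0.05. SUB2, a helicase that loads export factors on mRNA, was the one of these 9 beyond 2-fold, beside 14.8% of all genes compared. It had 251 RPM in the gim3 deletion library and 515 RPM in the WT library, 2.06-fold lower (2.00 to 2.11). Once centred it was at -0.83, within 2-fold. NAB2, an mRNA-binding export protein that docks on MLP1, was highest, with 333 RPM in the gim3 deletion library and 196 RPM in the WT library, 1.70-fold higher (1.65 to 1.75). The 4 proteins listed as anchored at the pore, SEC13 among them, had a median of -0.33, from ULP1, a SUMO protease, at -0.55 to ESC1, a perinuclear silencing factor, at -0.14.

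Among genes of pore assembly and the nuclear envelope, SRC1 was far from the rest. SRC1 encodes an inner nuclear membrane protein that helps to recruit the surveillance of faulty pores, and it had 700 RPM in the gim3 deletion library and 148 RPM in the WT library, 4.72-fold higher (4.58 to 4.86). Of the 11 listed genes, BRR6 was below the filter and the other 9 were within 2-fold, where 14.8% of all genes compared lay beyond it. HEH2, a relative of SRC1, was lowest with a log2 ratio of -0.51, and the list median was -0.15. No pore gene reached the ratio of SRC1 or of any of the 16 middle meiosis genes, whose log2 ratios ran up to 4.68 with a median of 3.499. Genes of meiotic entry and prophase had a median of -0.28. Relative to the median gene, the list medians were -0.46 for importins and exportins, -0.43 for the Ran cycle, 0.15 for mRNA export, 0.05 for pore assembly and the envelope, and -0.12 for the anchored proteins, so that those of mRNA export and of pore assembly change sign.

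**Figure D4:**
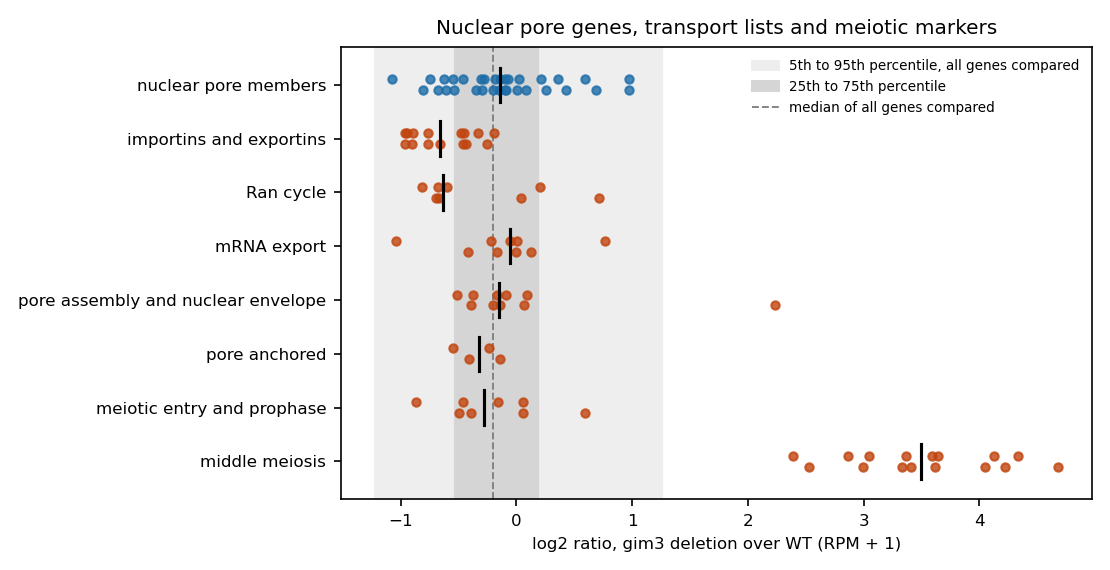
Log2 ratio of RPM + 1, gim3 deletion over WT, for the 32 pore genes (blue), 5 lists of transport and envelope genes and 2 lists of meiotic markers (orange); each point is a gene, black ticks are list medians and the grey bands span all genes compared. The pore genes spread about the dashed median of all genes, 14 of the 15 importins and exportins lie to its left, and the middle meiosis genes and SRC1 lie far to the right.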

How the data were processed

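Ribosome footprints were measured in 1 gim3 deletion and 1 WT culture. The values the authors deposited are RPM, found from the values themselves: each column sums to 1000000 and 100% of values in both libraries were whole multiples of the smallest (within 0.001 of a read), so whole reads were recovered. Bowtie2, STAR and SAMtools are named per the submitters' processing notes; what is not given in the sources used here is their version and role, the genome build, the annotation and the multi-mapping rule. Of 6678 lines, 86 had no gene name (0.124% of gim3 deletion and 0.121% of WT reads) and were left out. One further line was empty. Of the 6592 names, 5910 matched the RefSeq R64 table, which gave gene spans; no pore gene overlaps another gene of that table. Sequences of the pore genes were not used here.

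The log2 ratio used a pseudocount of 1 RPM, which makes low genes look less different than they are. Folds divide RPM by RPM, with Clopper-Pearson 95% intervals, which cover counting error only, since there is 1 library per genotype. Duplicate reads cannot be told from separate molecules, so the intervals may be too narrow even for counting error. Count models were not run, for lack of replicates. Recovered reads were instead set against the ratio of library totals in a two-sided exact binomial test with Benjamini-Hochberg adjustment over all genes compared. The comparison is of libraries, not genotypes. At an adjusted p of 0.05, reads differed for 4333 of 4916 genes and 30 of the 32 pore genes. Libraries of 6592 genes at these depths were simulated with counting noise only. In them a true 3-fold change was called by the 2-fold rule in 50 of 50 genes and a true 1.5-fold change in 0 of 50. Of 4723 unchanged genes, 0 were called. Every gene compared had at least 588 reads over both libraries, so counting noise alone left little room for another outcome. Unchanged genes were set at a ratio of 1, whereas the real median gene had a log2 ratio of -0.20. Variation between cultures was not simulated, so the simulation does not show how often the rule would call a gene between 2 cultures of the same genotype. The members, groups and lists were chosen with earlier results of these data known. Named genes are all members and, of each transport list, the highest, the lowest and those past 2-fold; GSP2, PER33, SEC13, BRR6, GIM3 and the marker genes are named for context. Alternatives covered pseudocount, filter, scaling, gene length, threshold, mean and grouping. The software was Python 3.11.15 with SciPy 1.17.1, pandas 2.3.3, numpy 2.4.6, matplotlib 3.10.9 and statsmodels 0.14.6.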

Additional observations from a re-analysis of the deposited data

How the results depend on the processing

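With 1 library per genotype no replicate could be left out, and no call is a test. No paired analysis was possible because each genotype has a single library. The scaling mattered most. Centring on the median gene, which moves all log2 ratios by 0.20, gave a median of 0.059 over the pore genes, 0.12 for the basket, -0.24 for the outer ring, 0.019 for the inner ring, -0.11 for the channel, 0.33 for the membrane ring and 0.13 for the cytoplasmic side, with 2 pore genes at least 2-fold higher and 0 lower. A trimmed mean of ratios gave 0.037, 0.097, -0.26, -0.0030, -0.13, 0.31 and 0.11 in the same order, again with 2 higher and 0 lower. Signs turned for 7 genes under the first of these and for 6 under the second. Totals without the middle meiotic list gave 2 genes at least 2-fold higher, a pseudocount of 0.1 RPM 1, and removal of a trend on gene length 1. A 1.5-fold rule gave 4 higher and 6 lower. Taking the mean gave 0.090 for the basket, 0.043 for the inner ring and -0.42 for the channel. A filter at 50 RPM left 28 pore genes and gave -0.24 for the inner ring and 0.0033 for the cytoplasmic side, which was 0.0019 with the length trend removed. Leaving out NUP59, an alternative chosen after seeing the data, gave -0.24 for the inner ring. Moving NUP145 to the linkers gave -0.54 for the outer ring. Across all settings NSP1 stayed between -1.08 and -0.87, MLP1 between 0.93 and 1.18 and NUP59 between 0.72 and 1.17. Depth limits GLE1 and NUP59 most: the upper end of the interval of NUP59 is 1.35 times the lower, against 1.10 for the median pore gene.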

Other observations

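Across the 32 pore genes, which share both libraries and are not independent, the log2 level per kb in the gim3 deletion library and in the WT library correlated at 0.92 (Pearson) and 0.93 (Spearman), beside 0.90 by either measure over the 4884 genes compared that have an annotated span. Their log2 ratio was only weakly related to gene length (Pearson 0.16, Spearman 0.10), beside -0.058 and -0.069 over the same 4884 genes. Pore genes are long, with a median span of 2378 bases against 1287 for all genes compared.

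The spread of levels within a part of the pore differed between the libraries in some groups. On the cytoplasmic side the highest gene, GLE2, stood 12.7 times above the lowest, GLE1, in the gim3 deletion library and 5.26 times in the WT library. In the membrane ring POM33 stood 4.201 times above POM152 in the gim3 deletion library and 7.87 times in the WT library. These are values of 1 library each.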
